A study of Saccharomyces cerevisiae with 14 samples.

Results

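The genes described here encode the subunits that belong to RNA polymerase I alone in the budding yeast Saccharomyces cerevisiae, with 1 initiation factor listed beside them. They were taken by locus tag and make up 8 of the 6470 features in the table: RPA190 (YOR341W), RPA135 (YPR010C), RPA43 (YOR340C), RPA14 (YDR156W), RPA49 (YNL248C), RPA34 (YJL148W), RPA12 (YJR063W) and RRN3 (YKL125W). The label of subunit holds for 7 of them. RRN3 encodes a factor that binds the enzyme before initiation and is not part of the core enzyme, so it is named apart throughout.

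RNA polymerase I transcribes the large precursor of the ribosomal RNAs from the repeated ribosomal DNA and is the busiest polymerase of a dividing yeast cell. Its genes are known to be regulated with those of ribosome assembly, many of which carry the promoter elements PAC (polymerase A and C) and RRPE (ribosomal RNA processing element). Cells that run out of nutrients are known to shut down ribosomal RNA synthesis, in part by releasing Rrn3 from the polymerase.

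RNA was sequenced from cultures in mid exponential or late stationary phase, grown at pH 4 in synthetic complete (SC) medium. Metformin, a biguanide taken for diabetes, was added at 50 mM or left out at 0 mM. Exponential cultures gave 4 libraries without the drug and 4 with it, and stationary cultures gave 3 and 3. All 14 libraries came from 1 haploid strain, so the controls share every allele with the treated cultures: MATa, LEU2, PDC1-RFP-CaURA3MX4, can1D::STE2pr-SpHIS5, lyp1D, his3D1 with his3D::kanMX4, and ura3D0. The labels give a single batch. They do not tie each replicate to a culture of its own, so a p-value here speaks of the spread among these libraries, which may be technical.

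Gene counts per library lay between 43897221 and 59443572. As a check of the strain, URA3 had 0 counts in each of the 14 libraries, and HIS3 stayed at or below 0.554 CPM, the count scaled to a common library size, and LYP1 at or below 1.36 CPM. CAN1, which the genotype gives as replaced, was counted at 1.71 to 23.4 CPM, with up to 1877 reads in a library, so it went against that label. Protein-coding genes held 84.0% to 87.5% of gene counts in the exponential libraries and 25.1% to 33.3% in stationary ones, where the signal recognition particle RNA SCR1 alone took 30.6% to 37.9%. CPM and fold changes below are therefore scaled with TMM, which sets the trimmed mean gene to no change. Scaling to library totals moved the median log2 fold change of all genes to -1.02 without and -1.22 with metformin, and scaling to protein-coding totals moved it to 0.45 and 0.34.

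The promoters are shown first because 6 of the 8 members hold the same pair of elements there. The 250 bases before each annotated start codon were read from the RefSeq R64 genome and searched on both strands for the PAC core GATGAG, the longer PAC form GCGATGAG and the RRPE core AAAAATTT. Sites of the general regulatory factors Reb1 and Abf1 were searched in the same way. The authors' build is not given in the sources used here, so these positions are those of R64. Printed are the 200 bases farthest from the start codon for 6 members, 5′ to 3′ on the gene's strand, with PAC and RRPE cores in capitals on either strand. Where 2 cores overlap they appear as 1 run of capitals. The windows are chrXV:960737-960936 on the plus strand for RPA190, chrXVI:581247-581446 on the minus strand for RPA135, and chrIV:769275-769474 on the plus strand for RPA14. Those of RPA49, RPA12 and RRN3 are chrXIV:182659-182858 on the minus strand, chrX:554945-555144 on the plus strand and chrXI:207997-208196 on the plus strand. RPA190 and RPA135 encode the catalytic subunits, RPA14 held both cores but rose under TMM scaling, where the other subunits fell, and fell with them under library totals, and RPA49 held the longer PAC form. RPA12 held neither core, and RRN3 held PAC alone.
RPA190: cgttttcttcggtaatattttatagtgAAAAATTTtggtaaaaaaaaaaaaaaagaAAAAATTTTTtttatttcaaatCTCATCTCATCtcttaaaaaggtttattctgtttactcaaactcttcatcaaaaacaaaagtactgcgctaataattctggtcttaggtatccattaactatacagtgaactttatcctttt
RPA135: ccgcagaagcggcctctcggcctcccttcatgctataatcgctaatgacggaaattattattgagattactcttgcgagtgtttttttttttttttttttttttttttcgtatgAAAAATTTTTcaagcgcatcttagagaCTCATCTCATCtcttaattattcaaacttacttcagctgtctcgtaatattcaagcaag
RPA14: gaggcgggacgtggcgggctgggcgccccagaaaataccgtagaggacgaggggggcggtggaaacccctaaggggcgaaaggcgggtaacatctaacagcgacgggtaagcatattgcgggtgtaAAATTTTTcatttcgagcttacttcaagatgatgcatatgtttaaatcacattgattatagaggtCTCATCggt
RPA49: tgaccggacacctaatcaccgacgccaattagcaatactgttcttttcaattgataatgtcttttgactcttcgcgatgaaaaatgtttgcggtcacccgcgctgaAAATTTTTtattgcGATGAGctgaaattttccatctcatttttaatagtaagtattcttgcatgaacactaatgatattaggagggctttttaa
RPA12: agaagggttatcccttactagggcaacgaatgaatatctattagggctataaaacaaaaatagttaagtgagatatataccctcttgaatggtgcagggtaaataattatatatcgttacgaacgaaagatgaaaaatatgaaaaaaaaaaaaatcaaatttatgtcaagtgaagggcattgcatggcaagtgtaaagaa
RRN3: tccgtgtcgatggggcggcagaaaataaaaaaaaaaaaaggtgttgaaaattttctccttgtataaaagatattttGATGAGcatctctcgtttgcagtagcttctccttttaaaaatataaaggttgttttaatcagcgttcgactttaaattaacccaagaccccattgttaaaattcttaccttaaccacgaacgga

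The PAC core was found in 7 of 8 members, all but RPA12, and in 17.0% of 6001 promoters of protein-coding genes. The RRPE core was found in 6 of 8, all but RPA12 and RRN3, and in 13.4% of promoters. Both cores stood together in 6 of 8 members and in 4.98% of promoters. The longer GCGATGAG was found in 1 member, RPA49, and in 3.83% of promoters. RPA190 and RPA135, which lie on different chromosomes, each had 2 overlapping reversed PAC cores that read CTCATCTCATC, and upstream of them 2 overlapping RRPE cores that read AAAAATTTTT. In RPA190 the PAC run began at -172 and in RPA135 at -109 from the start codon, with an RRPE core at -194 and -136. In RPA14 the order was the same, but PAC stood at -59, closest to the start codon of the 7. RPA43 had the opposite order, with PAC at -182 and RRPE at -157. RPA34 had PAC at -110 with RRPE at -122 and -222. RPA14 alone of the members also held the Reb1 site CGGGTAA, in 2 places, and 7.03% of promoters held that site at least once. An Abf1 site was found in 2 members, RPA135 at -213 and RPA12 at -138, and in 11.6% of promoters.

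**Figure D1:**
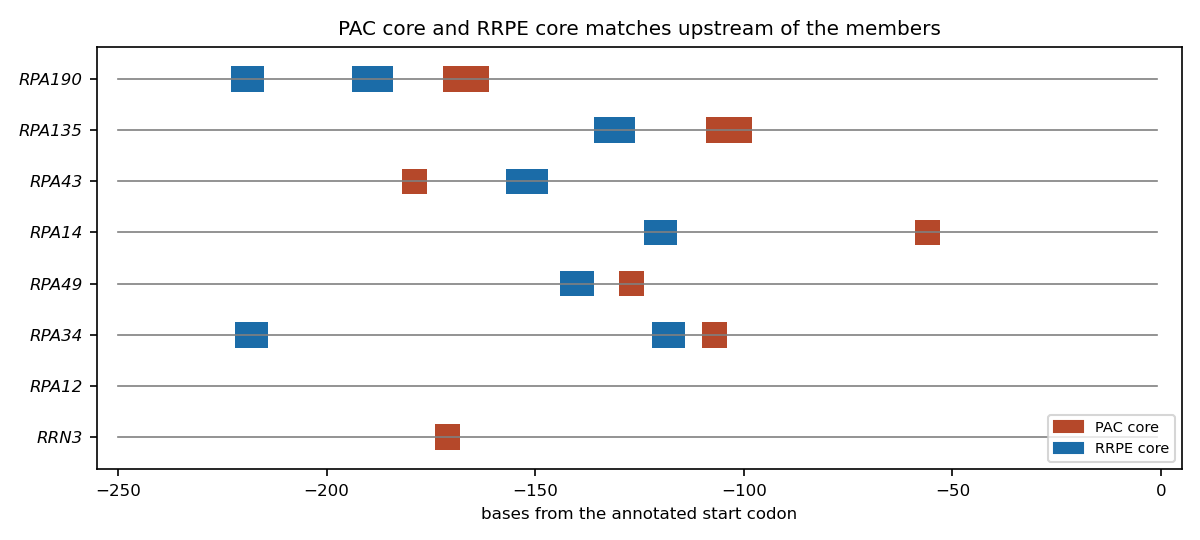
Matches of the PAC core and the RRPE core in the 250 bases before the start codon of each member, with bases from the start codon on the x axis and 1 line per gene. PAC cores are seen in 7 of 8 members, RRPE cores in 6 of 8, and neither in RPA12; overlapping matches are drawn as 1 bar.

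The comparison taken first is stationary against exponential phase. Without metformin, 6 of the 8 genes fell and 2 rose in stationary cultures by edgeR's quasi-likelihood test with Benjamini-Hochberg adjustment over 6097 tested features. In this comparison 42.2% of all tested features fell and 42.4% rose, so the counts of members are to be read against a background in which most genes changed. The catalytic subunits RPA190 and RPA135 fell furthest, the stalk subunit RPA43 and RPA12 fell by less, and RPA49 and RPA34 by the least. RPA14, the other stalk subunit, and RRN3 rose under TMM. Scaled to library totals RPA14 fell instead, at -0.55, and RRN3 at 0.22 did not pass. The median log2 fold change of the 8 genes under TMM was -1.04, beside 0.02 over all features tested, a value that TMM holds near 0. With metformin the split was again 6 fallen and 2 risen, with a median of -1.20 beside -0.01, where 41.8% of all features fell and 40.8% rose. All 8 members passed the filter on low counts. Within each member the exponential and stationary libraries did not overlap, either without metformin, where this held for 83.7% of all tested features, or with it, where it held for 79.8%. A lower share of the RNA pool cannot be told apart here from fewer transcribing cells or less RNA per cell.

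RPA190 encodes the largest subunit, which forms the active centre together with RPA135 and lies at chrXV:960987-965981 on the plus strand. It stood at 577, 573, 563 and 628 CPM in exponential libraries without metformin and at 189.9, 187 and 152 CPM in stationary ones. With metformin it stood at 510.5, 721, 540.5 and 744.5 CPM in exponential and at 139.5, 197 and 162 CPM in stationary libraries. All stationary libraries lay far below all exponential ones, and among exponential libraries with metformin replicates 2 and 4 were higher than 1 and 3. The log2 fold change was -1.73 (SE 0.16, adjusted p = 1.1e-07) without and -1.92 (SE 0.16, adjusted p = 3.9e-08) with metformin, which is 3.32-fold lower without the drug.

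RPA135 encodes the second-largest subunit and lies at chrXVI:577585-581196 on the minus strand. Without metformin it stood at 507, 521, 466 and 547 CPM in exponential and at 125, 124 and 78.9 CPM in stationary libraries. With metformin the values were 469, 634, 434 and 615 CPM, and 94.9, 140.4 and 107 CPM. It had the lowest log2 fold change of the 8 genes, and stationary replicate 3 without metformin was the lowest library. It fell by 2.22 (SE 0.20, adjusted p = 7.8e-08) on the log2 scale without metformin, or 4.67-fold, and by 2.24 (SE 0.20, adjusted p = 7.5e-08) with metformin.

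RPA43 and RPA14 encode the stalk, a protrusion of the enzyme near the RNA exit; RPA43 carries the surface to which Rrn3 binds. RPA43 lies at chrXV:959202-960182 on the minus strand, next to RPA190 and divergent from it, with 804 bases between their start codons. RPA43 stood at 61.7, 70.9, 63.4 and 70.6 CPM in exponential and at 32.7, 31.4 and 21.7 CPM in stationary libraries without metformin. With metformin it stood at 59.55, 82.1, 57.9 and 70.7 CPM, and at 24.4, 30.9 and 24.25 CPM. The stationary libraries were lower in every case, though by a smaller margin than for RPA190. RPA43 fell by 1.22 (SE 0.16, adjusted p = 4.5e-06) on the log2 scale without and by 1.35 (SE 0.16, adjusted p = 1.7e-06) with metformin.

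RPA14 lies at chrIV:769525-769938 on the plus strand. Without metformin it was nearly constant over exponential libraries at 21.7, 21.6, 22.2 and 21.9 CPM, and stood at 33.5, 33.3 and 25.04 CPM in stationary ones. With metformin it stood at 21.3, 23.9, 20.4 and 20.6 CPM, and at 26.55, 31.4 and 30.05 CPM. Every stationary library was above every exponential one, with the narrowest margin in stationary replicate 3 without metformin. RPA14 rose by 0.49 (SE 0.10, adjusted p = 0.00038) on the log2 scale without and by 0.44 (SE 0.10, adjusted p = 0.00087) with metformin. Scaled to library totals it fell instead, to -0.55 (adjusted p = 0.0029) and -0.76 (adjusted p = 0.00018), while scaling to protein-coding totals gave rises of 0.92 and 0.79. Its reading frame overlaps that of YDR157W on the same strand by 8 bases, a feature at 0.155 CPM in exponential and 0.362 CPM in stationary libraries without metformin. The neighbours on either side, CPR1 and HOM2, fell, at -1.76 and -3.97 on the log2 scale.

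RPA49 and RPA34 encode a dimer related to the general factor TFIIF that aids initiation and elongation. RPA49 lies at chrXIV:181361-182608 on the minus strand and RPA34 at chrX:140437-141138 on the plus strand. Without metformin RPA49 stood at 94.5, 101.4, 103.1 and 117.9 CPM in exponential and at 65.3, 65.3 and 42.3 CPM in stationary libraries. With metformin it stood at 81.6, 121.5, 98.6 and 117 CPM, and at 44.9, 64.6 and 40.9 CPM. Stationary libraries were lower throughout, with those below 50 CPM being replicate 3 without and replicates 1 and 3 with metformin. RPA49 fell by 0.85 (SE 0.19, adjusted p = 0.00076) without and by 1.06 (SE 0.19, adjusted p = 0.00013) with metformin. Scaled to protein-coding totals, its value without metformin was -0.42 (adjusted p = 0.061), which did not pass.

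RPA34 stood at 37.65, 41.05, 43.9 and 43.02 CPM in exponential and at 27.35, 24.9 and 20.9 CPM in stationary libraries without metformin. With metformin the values were 31.99, 46.4, 40.6 and 47.97 CPM, and 20.2, 21.9 and 18.5 CPM. The lowest exponential library, replicate 1 with metformin, was still above the highest stationary one. RPA34 fell by 0.76 (SE 0.13, adjusted p = 8.9e-05) without and by 1.05 (SE 0.13, adjusted p = 4.5e-06) with metformin.

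RPA12 encodes a small subunit needed for cleavage of the nascent RNA and for termination, and lies at chrX:555195-555572 on the plus strand. It stood at 27.1, 31.8, 39.2 and 38.1 CPM in exponential and at 15.96, 14.6 and 12.4 CPM in stationary libraries without metformin. With metformin it stood at 26.2, 39.6, 35.05 and 33.1 CPM, and at 10.8, 15.2 and 12.25 CPM. It is the member with neither promoter core, and it fell by 1.25 (SE 0.17, adjusted p = 7.0e-06) without and by 1.39 (SE 0.17, adjusted p = 2.7e-06) with metformin, more than RPA49 and RPA34 in point estimate. The lowest count of any member in any library was 294 reads, for RPA12 in stationary replicate 1 with metformin.

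RRN3, at chrXI:208247-210130 on the plus strand, encodes the factor that bridges the polymerase to the promoter-bound core factor. It stood at 23.98, 22.2, 29.8 and 26.8 CPM in exponential and at 75.5, 64.98 and 43.2 CPM in stationary libraries without metformin. With metformin it stood at 16.5, 30.4, 30.3 and 28.98 CPM, and at 66.3, 62.9 and 48.9 CPM. Every stationary library was above every exponential one, and replicate 3 was the lowest stationary library in both treatments. RRN3 rose by 1.25 (SE 0.21, adjusted p = 7.7e-05) on the log2 scale without, or 2.38-fold, and by 1.16 (SE 0.21, adjusted p = 0.00016) with metformin. Scaled to library totals the values were 0.22 (adjusted p = 0.43) and -0.036 (adjusted p = 0.90), neither of which passed, and scaled to protein-coding totals they were 1.69 and 1.51. The gene downstream on the same strand, SSH4, rose by 2.53, and the gene upstream, YPK1, fell by 0.29. Neighbours of the members that fell went both ways without metformin. The lowest was CRS1, by RPA49, at -2.81. The highest was YNCP0010W, by RPA135, at 2.35, a feature at 0.102 CPM in exponential libraries.

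**Figure D2:**
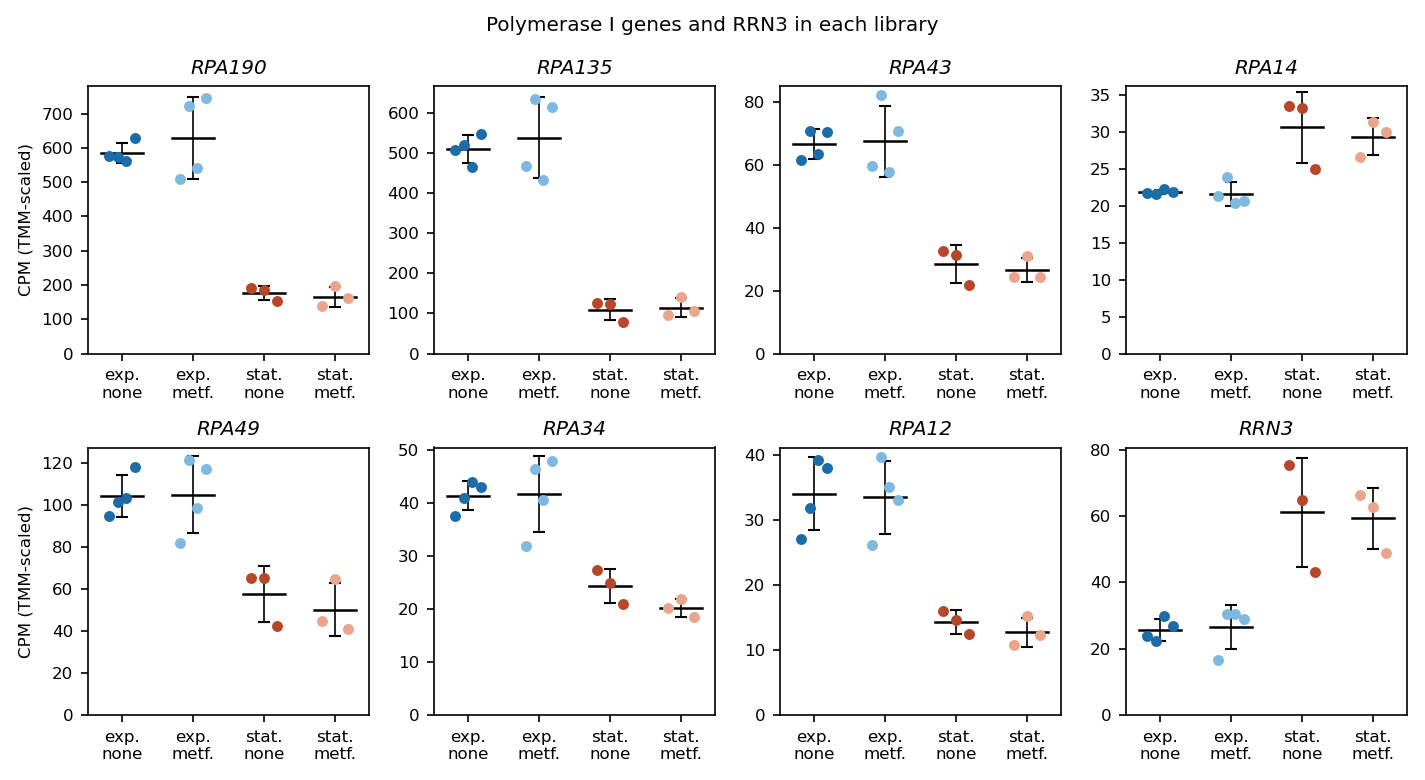
CPM after TMM scaling of each member in each of the 14 libraries, by growth phase (exp., exponential; stat., stationary) and metformin (none or 50 mM), on linear axes from 0; points are libraries, long bars means and error bars SD (n = 4, 4, 3 and 3). The stationary libraries lie below the exponential ones for 6 genes and above them for RPA14 and RRN3.

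**Figure D3:**
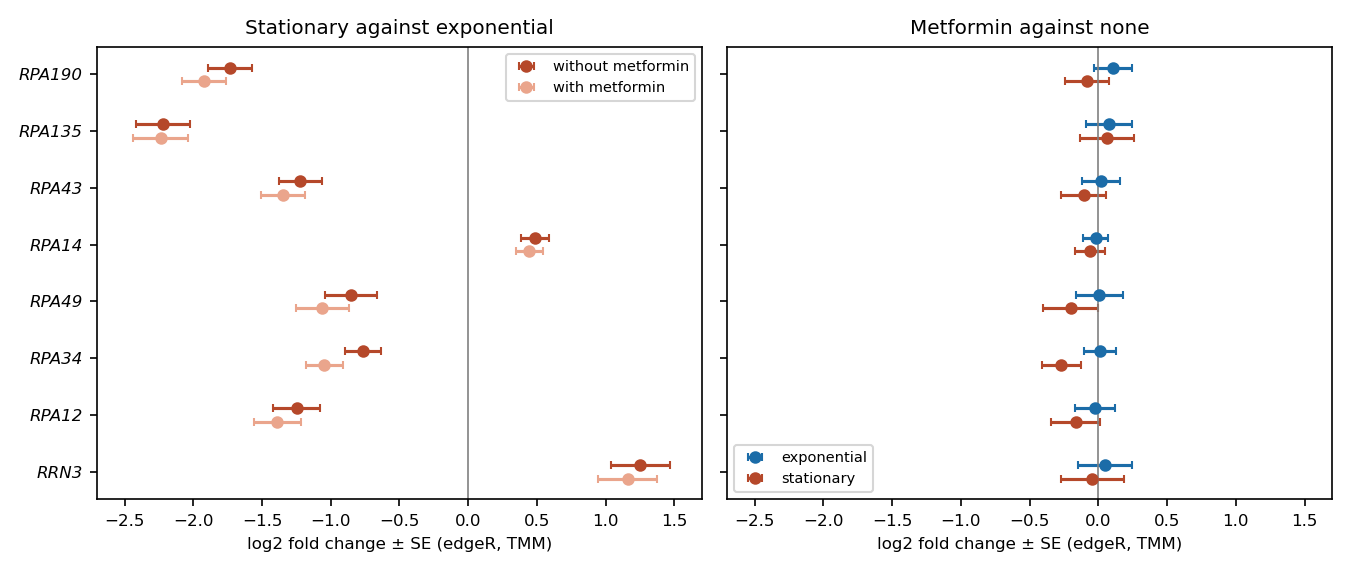
Log2 fold changes of the 8 genes with standard errors from the edgeR fit, stationary against exponential on the left and metformin against none on the right, on the same x axis. Phase changes range from -2.24 for RPA135 to 1.25 for RRN3, while no metformin change passed the test.

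Per length of coding sequence, the order of the genes differed between phases. In exponential libraries without metformin RPA135 was highest at 141 ± 9.41 CPM per kilobase (SD, n = 4), followed by RPA190 at 117 ± 5.84. Each of these was separated from the next in order. RPA12 at 90.1 ± 14.97 and RPA49 at 83.5 ± 7.91 overlapped, RPA43 stood at 68.0 ± 4.87, RPA34 at 59.0 ± 3.96 and RPA14 at 52.8 ± 0.661 overlapped, and RRN3 was lowest at 13.6 ± 1.75. In stationary libraries without metformin RPA14 was highest at 73.9 ± 11.7 CPM per kilobase (n = 3) and did not overlap the next, RPA49 at 46.2 ± 10.6. The other 7 genes formed a run from RPA49 down to RPA43 at 29.1 ± 6.12 in which each overlapped its neighbour. RRN3 stood at 32.5 ± 8.73 and RPA135 at 30.2 ± 7.27 CPM per kilobase. The highest mean level was 10.4 times the lowest, RRN3, in exponential and 2.54 times the lowest, RPA43, in stationary libraries. With metformin it was 10.6 times that of RRN3 and 2.62 times that of RPA43. The wider exponential spread rests on RRN3, which is not a subunit. Without metformin the subunits alone ran from 141 to 52.8 CPM per kilobase in exponential and from 73.9 to 29.1 in stationary libraries.

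The members together took 0.167% to 0.238% of gene counts in the exponential libraries and 0.0219% to 0.0420% in the stationary ones. Of protein-coding counts alone they took 0.198% to 0.275% and 0.0867% to 0.126%. Both summed shares were lower in every stationary library, without overlap. The sums include RRN3 and rest mostly on RPA190 and RPA135. In exponential replicate 1 without metformin these had 35089 and 30833 reads, and RPA49 came next with 5743. Taken singly, the shares of protein-coding counts of RPA14 and RRN3 went the other way and were higher in every stationary library. Those of RPA49 and RPA34 overlapped between phases.

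Ratios of counts of 2 genes within a library need no scaling between libraries, and 7 were compared per comparison with a two-sided exact permutation test, adjusted over the 7. For 3 libraries against 4 the smallest p that the design allows is 0.0286, which adjusts to 0.0333 for the 6 ratios that reached it in both phase comparisons. A ratio reaches that p only where its libraries do not overlap between phases. Single features did not overlap in 83.7% of cases without and 79.8% with metformin. The share among ratios of other gene pairs was not tested. The catalytic pair did not fall in step. RPA190 over RPA135 was 1.15 ± 0.0447 (SD, n = 4) in the exponential libraries without metformin and 1.65 ± 0.241 (n = 3) in the stationary ones, and 1.17 ± 0.0706 and 1.47 ± 0.0567 with metformin. The ratio was higher in every stationary library, by 0.52 on the log2 scale without and 0.32 with metformin (exact permutation p = 0.0286, adjusted 0.0333, in each).

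Of the 3 ratios within the enzyme, that of the stalk pair differed most between phases. RPA43 over RPA14 went from 3.05 ± 0.234 (n = 4) to 0.928 ± 0.0559 (n = 3) without metformin and from 3.12 ± 0.353 to 0.904 ± 0.0899 with metformin. The log2 differences were -1.72, or 3.29-fold, and -1.79 (exact permutation p = 0.0286, adjusted 0.0333, in each). The ratio of the TFIIF-like pair did not pass: RPA49 over RPA34 was 2.52 ± 0.165 and 2.34 ± 0.303 without metformin, with overlapping libraries and a log2 difference of -0.11 (exact permutation p = 0.40). With metformin the difference was -0.040 (exact permutation p = 0.80).

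**Figure D4:**
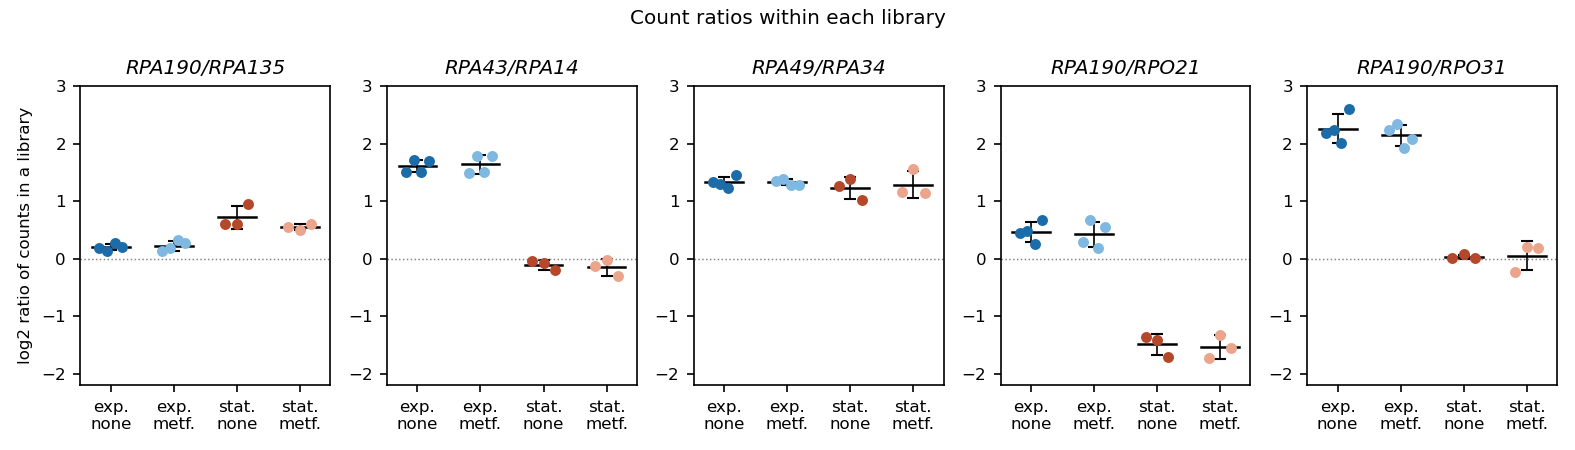
Log2 ratios of counts of 2 genes within each library, for 5 of the 7 ratios compared, by phase (exp., stat.) and metformin; points are libraries, long bars means and error bars SD. Phases separate without overlap for every ratio shown except RPA49 over RPA34.

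Against the other nuclear polymerases the catalytic subunits of polymerase I were lower in stationary phase on this same scale-free measure. RPA190 over RPO21, the largest subunit of polymerase II, was 1.39 ± 0.168 in exponential and 0.357 ± 0.0441 in stationary libraries without metformin. RPA190 over RPO31, its counterpart in polymerase III, was 4.85 ± 0.870 and 1.02 ± 0.0243. RPA135 over the polymerase II subunit RPB2 was 1.54 ± 0.205 and 0.364 ± 0.0712, and over the polymerase III subunit RET1 it was 3.33 ± 0.187 and 0.503 ± 0.117. The log2 differences were -1.96, -2.23, -2.09 and -2.76 without and -1.96, -2.09, -1.92 and -2.54 with metformin (exact permutation p = 0.0286, adjusted 0.0333, in each).

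Counterpart subunits showed where the enzymes differed, with directions given under TMM. Among the large subunits, RPO31 changed by 0.49 and RET1 by 0.50 on the log2 scale without metformin, and both rose, where RPA190 and RPA135 fell. RPO21 rose by 0.22 (SE 0.09, adjusted p = 0.034), and RPB2 at -0.17 (SE 0.10, adjusted p = 0.13) did not pass. Scaled to library totals these 4 also fell, to -0.83 for RPO21, -1.21 for RPB2, -0.55 for RPO31 and -0.54 for RET1, beside -2.77 for RPA190 and -3.26 for RPA135.

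The smaller counterparts gave another picture. The polymerase III stalk subunits RPC25 and RPC17 fell, at -1.58 (SE 0.12) and -0.78 (SE 0.11), whereas their polymerase II counterparts RPB7 at -0.11 and RPB4 at -0.022 did not pass. In polymerase I 1 stalk subunit fell and the other rose under TMM, a rise of RPA14 that library totals turned to a fall. The TFIIF-like pair of polymerase III, RPC37 and RPC53, rose by 0.27 and 0.55, and fell under library totals, at -0.77 and -0.50. RPC11, the polymerase III relative of RPA12, fell by 1.63 (SE 0.10), and RPB9 of polymerase II fell by 0.39 (SE 0.09), which protein-coding totals turned to 0.049 without a call.

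**Figure D5:**
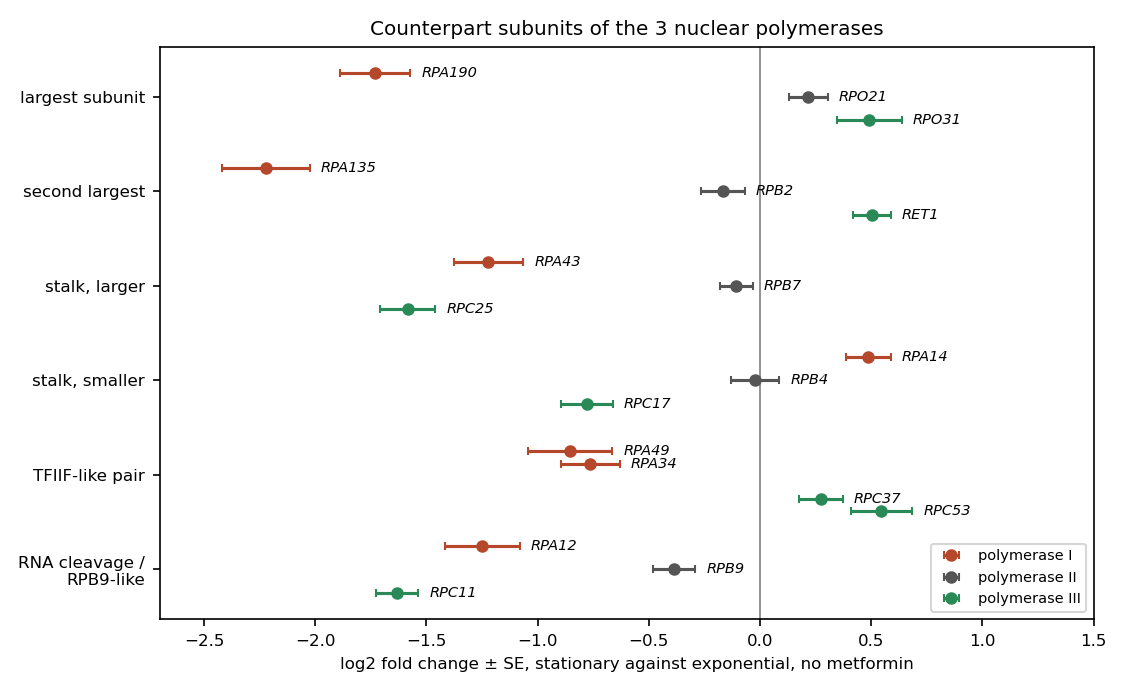
Log2 fold change with its standard error, stationary against exponential without metformin under TMM scaling, for counterpart subunits of polymerases I, II and III. RPB9 is placed beside RPA12 and RPC11 as a relative, and the TFIIF-like pair has no polymerase II entry. RPA190 and RPA135 lie left of their counterparts at -1.73 and -2.22, while RPA14 at 0.49 lies right of RPB4 and RPC17.

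Of the 7 subunits listed for polymerase II alone, 1 rose and 3 fell without metformin, with a median of -0.17. RPB11 fell by 1.15 and RPB3 fell by 0.67. Of the 10 for polymerase III alone, 5 rose and 4 fell, with a median of -0.00145. The others were RPC82, which rose by 0.66, RPC34, which fell by 1.49, and RPC31 at -0.28 (adjusted p = 0.11). Both subunits that polymerase I shares with polymerase III fell, RPC40 at -0.97 and RPC19 at -0.64. All 5 that the enzymes share fell as well, RPO26 at -1.52, RPB8 at -1.33, RPB10 at -1.13, RPB5 at -1.004 and RPC10 at -0.56. Of these 7 shared subunits, 5 still fell with protein-coding totals, 1 of the first pair and 4 of the others. Under library totals all 7 polymerase II genes fell, as did 9 of the 10 polymerase III genes.

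With metformin the medians were -0.32 for polymerase II and -0.26 for polymerase III. RPO21 at 0.043 and RPO31 at 0.16 no longer passed, while RPB2 fell by 0.32. The 7 shared subunits again fell.

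Of 9 other polymerase I factors, 5 fell and 2 rose without metformin. HMO1, a protein of the transcribed ribosomal DNA, fell by 1.26 (SE 0.08, adjusted p = 1.3e-09). SPT15, the TATA-binding protein, which serves all the polymerases, rose by 1.36 (SE 0.09, adjusted p = 3.7e-09), and RRN10, part of the upstream activating factor, rose by 0.64. Among the core factor genes, RRN6 fell by 1.01, and RRN7 at -0.056 and RRN11 at 0.40 did not pass. With library totals SPT15 alone of the 9 rose without metformin, by 0.32, and 0 of the 9 rose with it.

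Of 6 growth regulators, 5 rose and 1 fell without metformin. STB3, known to bind the RRPE, rose by 1.72 (SE 0.17, adjusted p = 2.8e-07). TOD6, known to bind PAC and repress, rose by 1.61 (SE 0.17, adjusted p = 6.2e-07). The others that rose were DOT6, SCH9 and SFP1. Their means without metformin were 95.3, 87.4 and 49.05 CPM in exponential libraries and 212, 160 and 86.2 CPM in stationary ones. MAF1, the repressor of polymerase III, fell by 0.32 (adjusted p = 0.0020). With metformin MAF1 stood at -0.092 (adjusted p = 0.31) and did not pass. With protein-coding totals it stood at 0.11 without metformin (adjusted p = 0.25) and rose by 0.26 with it (adjusted p = 0.013). With library totals 2 of the 6 rose without metformin, STB3 by 0.68 and TOD6 by 0.58. With library totals and metformin 0 of the 6 rose and 3 fell.

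Of 44 ribosome biogenesis genes, 21 fell and 8 rose without metformin, with a median of -0.34, and 26 fell and 4 rose with metformin, with a median of -0.55. NOP56 and RRP1, needed for maturation of ribosomal RNA, had log2 fold changes of -2.08 (SE 0.15) and -2.03 (SE 0.17), and both fell. NOP16 and IMP4 rose by 1.48 and 0.62. In this list 41 of 44 genes carried the PAC core and 41 carried the RRPE core. Without metformin, 40 fell and 1 rose under library totals, and 17 fell and 16 rose under protein-coding totals.

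Among polymerase III genes 8 of 10 carried the PAC core and 7 of 10 the RRPE core. Of those with both cores, RPO31, RET1, RPC82 and RPC53 rose under TMM without metformin, while RPC34 and RPC25 fell. None of the 7 polymerase II genes carried PAC. Over all tested genes, the 801 with an RRPE core had a median log2 fold change of -0.44 without metformin, beside 0.03 in the 5037 without one. The 970 with a PAC core had -0.07, beside -0.02 in the 4868 without. The members with both cores spanned -2.22 for RPA135 to 0.49 for RPA14.

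The genes whose profiles over the 14 libraries were nearest to the mean of the 8 members were UTP5, TRM2, UTP8, RRP3 and CCT2, with root mean square distances of 0.0568 to 0.0769 on the log2 CPM scale after centring. All 5 fell without metformin, at -0.82, -0.88, -0.72, -0.70 and -0.77. They were picked for likeness over these same libraries, so a fall like that of the mean was built into the choice. The members themselves lay 0.0905 (RPA34) to 1.04 (RRN3) from that mean, so it describes RPA34 and RPA49 better than RPA135, RPA14 or RRN3. Nearest to single members were BMT5 to RPA190 at 0.0856, ASP1 to RPA135 at 0.130, RLI1 to RPA43 at 0.0865 and TFB1 to RPA14 at 0.0578. TRM82 was nearest to RPA49 at 0.0749, UTP5 to RPA34 at 0.0938, DFR1 to RPA12 at 0.122 and PPR1 to RRN3 at 0.129. The nearest partner of RPA14, TFB1, rose by 0.46, and that of RRN3, PPR1, rose by 1.27, directions likewise set by the choice.

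The other comparison is metformin against none within each phase. In exponential cultures 0 of 8 genes passed by edgeR's quasi-likelihood test, where 0.0984% of all tested features did, which is 6 features, with 108 at an unadjusted p under 0.05. Log2 fold changes ran from -0.024 for RPA12 to 0.10 for RPA190, and each had an adjusted p of 0.999. The values of RPA190 and RPA135 are given above for each library: with metformin, replicates 2 and 4 lay above every control and replicates 1 and 3 below most of them. The 95% interval was -0.19 to 0.40 for RPA190, -0.29 to 0.44 for RPA135 and -0.22 to 0.18 for RPA14, the narrowest of the 8. A p that misses the threshold does not show equal levels, and with 4 libraries a group changes inside these intervals are not excluded. The intervals are per gene, whereas a call needed a p adjusted over all tested features.

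In stationary cultures 0 of 8 genes passed, where 0.0492% of all tested features did, which is 3 features, with 490 at an unadjusted p under 0.05. With replicate number as a block within each phase 9 features rose and 1 fell, and no member was among them. Of the 8 members 7 had a value below 0, where 2816 of 6097 tested features did. So did 44 of 44 ribosome biogenesis genes, 9 of 10 polymerase III genes and 1 of 9 other polymerase I factors. The lowest member was RPA34, at 27.35, 24.9 and 20.9 CPM without and 20.2, 21.9 and 18.5 CPM with metformin, with overlapping libraries. Its log2 fold change was -0.27 (SE 0.14, 95% interval -0.58 to 0.034, unadjusted p = 0.077, adjusted p = 0.70). RPA49 followed at -0.20 (interval -0.63 to 0.23) and RPA12 at -0.16 (interval -0.55 to 0.22), and RPA135 alone was above 0 at 0.062.

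The interaction of phase and metformin passed for 0 of 8 genes, where 0.0164% of all tested features passed, which is 1 feature, with 338 at an unadjusted p under 0.05. All 8 values were below 0, from -0.28 for RPA34 to -0.014 for RPA135, and each had an adjusted p of 0.998. Over all tested features 2961 of 6097 were below 0. So were 42 of 44 ribosome biogenesis genes, 9 of 10 polymerase III genes and 1 of 9 other polymerase I factors. Because the members were measured in the same libraries, their shared sign is not 8 separate observations. None of the 7 within-library ratios passed for metformin either, with adjusted exact permutation p of 0.971 for each ratio in exponential and 0.98 to 1.0 in stationary cultures, where the smallest p possible is 0.1. RPA190 over RPA135 was 1.65 ± 0.241 without and 1.47 ± 0.0567 with metformin in stationary cultures, with overlapping libraries (exact permutation p = 0.3).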

How the data were processed

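RNA was sequenced from 14 yeast libraries in 4 groups, grouped by the labels. The authors deposited raw whole-number counts for each feature, from directional libraries depleted of ribosomal RNA, per the labels' protocols. HTSeq, STAR and SAMtools are listed per the submitters' processing notes, without versions. The genome build was not given in the sources used here, nor were the annotation and whether counting used strand.

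All 6470 identifiers matched locus tags of the RefSeq R64 annotation. The 5 HTSeq summary lines, 6.12% to 10.1% of reads, were left out. Low features were removed by filterByExpr (minimum total 15, minimum count 10), and 6097 stayed. Counts were scaled with TMM and tested with edgeR 4.0.16 in R 4.3.3 (quasi-likelihood, two-sided, Benjamini-Hochberg over all tested features, threshold 0.05), all libraries in 1 model with group as its term. Standard errors were derived from the test statistic. Within-library ratios, promoter searches and exact permutation tests were done in Python 3.11.15. Precision is set by the spread between libraries: the members had 294 to 55466 reads per library. Libraries within a group differed by more than sampling noise. Only the edgeR fit was checked on simulated counts, with a small share of genes changed and a fixed spread. That setting does not check the scaling between phases, where most features changed.

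The members and all gene lists were chosen with earlier results of these data known. Named were all members, their counterparts and the shared subunits. From each other list the 2 genes with the lowest p and up to 2 called in the opposite direction were named, with the nearest genes by distance of centred log2 CPM (pseudocount 0.1). RPC34, RPC31, RPC82, RPB3, RPB11, RRN6, RRN7, RRN11, DOT6, SCH9 and SFP1 complete their lists, and neighbours were named by position. Deviations of same-numbered libraries correlated at 0.249, 0.220 and 0.479 in stationary cultures. Between exponential and stationary cultures they correlated at 0.117, 0.258 and 0.122 with metformin and at -0.057, -0.062 and -0.069 without it. In exponential cultures the correlations were 0.359, 0.0562, 0.699 and 0.244, so not every pair passed the limit of 0.1. Differently numbered pairs of a control and a metformin library ranged from -0.705 to 0.589 in exponential and from -0.471 to 0.340 in stationary cultures. These correlations were read from the data. The titles number stationary replicates 1 to 3 where the table's columns say 1, 2 and 5. Alternatives were other scalings, no filter, the replicate block, the 2 groups alone, limma-voom (limma 3.58.1), DESeq2 1.42.0 and leaving out each library. Scaling to protein-coding totals and the block within each phase were added after seeing the data.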

Additional observations from a re-analysis of the deposited data

Results flagged for a closer look

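RRN3 in exponential cultures with metformin had 1 library far from the others. Replicate 1 stood at 16.5 CPM and the other 3 libraries between 28.98 and 30.4 CPM, a gap of 0.898 of the group's range, above Dixon's critical value for 4 libraries. Chance gives about 1 such gap in 20 groups, and 30 sets of values were examined. Without that library the phase change of RRN3 with metformin was 0.99 on the log2 scale, beside 1.16 with it. The same library was also the lowest of its group for RPA190, RPA49, RPA34 and RPA12.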

How the results depend on the processing

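The 6 falls and 2 rises of the members in each phase comparison were kept with DESeq2 size factors, upper-quartile scaling, no filter, the replicate block, the 2 groups alone, limma-voom and DESeq2, and without any single library. Scaling to library totals gave 7 falls and 0 rises in both. There RPA14 turned to -0.55 and -0.76, and RRN3 to 0.22 and -0.036. Over all features 4019 then fell and 1065 rose without metformin, beside 2574 and 2585 with TMM, and 4292 fell and 822 rose with metformin, beside 2546 and 2490. The rises were thus 20.9% of calls without and 16.1% with metformin, beside 50.1% and 49.4%. With protein-coding totals the splits were 1883 fallen and 3231 risen, and 1990 and 3023, with rises at 63.2% and 60.3% of calls. The larger noncoding share of stationary libraries moves with this; its part in each member's level was not tested.

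No member was called for metformin under any setting run. Values near 0 changed sign in exponential cultures. RPA14 became 9.4e-05 with library totals. RPA49 became -0.0065 with DESeq2 size factors, -0.011 with upper-quartile scaling, -0.0074 with the replicate block, -0.0062 with the block within each phase, -0.0076 with limma-voom and -0.0078 with DESeq2. RPA34 became -0.00094 with DESeq2 size factors, -0.0053 with upper-quartile scaling, -0.0024 with the block within each phase, -0.0032 with limma-voom and -0.0022 with DESeq2. In stationary cultures RPA135 became -0.064 with library totals and -0.013 with protein-coding totals. Its difference between phases became 0.011 with the replicate block, 0.014 within each phase and 0.016 with limma-voom. The change of RPA135 over RET1 in exponential cultures became 0.00061 as a difference of edgeR values. The replicate block changed no call of a member.

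Over all features, metformin in stationary cultures gave 0 fallen and 3 risen. The fallen numbered 3 with library totals, 1 with the block within each phase, 2 with protein-coding totals, 1 with limma-voom and 12 with DESeq2. The risen numbered 9 with the block within each phase, 0 with the 2 groups alone, 6 with limma-voom and 35 with DESeq2. The difference between phases, 0 fallen and 1 risen, became 2 fallen with library totals, 1 with upper-quartile scaling, 2 with protein-coding totals and 7 with DESeq2. The risen became 0 with library totals and either block and 8 with DESeq2. The cause was not tested.

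Leaving out 1 library in turn gave these ranges for metformin in exponential cultures: RPA190 -0.0068 to 0.19, RPA135 -0.014 to 0.16, RPA43 -0.088 to 0.076, RPA49 -0.073 to 0.11, RPA34 -0.083 to 0.12, RPA12 -0.14 to 0.077 and RRN3 -0.033 to 0.22. In stationary cultures they were RPA190 -0.22 to 0.031, RPA135 -0.12 to 0.18, RPA43 -0.27 to 0.0071, RPA14 -0.19 to 0.015 and RRN3 -0.24 to 0.14. For the difference between phases they were RPA135 -0.20 to 0.10, RPA14 -0.17 to 0.033 and RRN3 -0.29 to 0.092. Risen features numbered 2 to 6 in exponential and 1 to 8 in stationary cultures, where 0 to 5 fell. The difference between phases had 0 to 10 fallen and 0 to 6 risen, the highest of each without stationary replicate 3 of the controls, which also gave the 5 and the 8.

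Log2 changes of ratios with metformin in exponential cultures ranged from -0.0040 to 0.060 for RPA190 over RPA135, -0.019 to 0.080 for RPA43 over RPA14, -0.036 to 0.039 for RPA49 over RPA34, -0.12 to 0.038 for RPA190 over RPO21, -0.099 to 0.14 for RPA135 over RPB2 and -0.052 to 0.062 for RPA135 over RET1. In stationary cultures they ranged from -0.11 to 0.038 for RPA43 over RPA14, -0.072 to 0.15 for RPA49 over RPA34, -0.16 to 0.051 for RPA190 over RPO21, -0.060 to 0.16 for RPA190 over RPO31, -0.00051 to 0.26 for RPA135 over RPB2 and -0.0034 to 0.33 for RPA135 over RET1. RPA49 over RPA34 between phases with metformin ranged from -0.18 to 0.030.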
